A study of Mus musculus with 6 samples.

Results

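The 10 genes described here mark the endothelial cells of the alveolar capillaries, and all 10 were found by symbol among the 49568 gene symbols of a bulk RNA-sequencing table from whole mouse lung. Car4, Ednrb, Apln, Fibin and Tbx2 represent aerocytes, and Gpihbp1, Aplnr, Plvap, Kit and Hpgd represent general capillary cells. The table held 3 TNF-Tg and 3 WT lungs from female mice of 4 months of age on a C57BL/6 background, each lung from a different mouse. TNF-Tg mice carry a human TNF transgene and develop inflammatory-erosive arthritis and pulmonary hypertension, and the WT mice were littermates without the transgene. The labels name no other allele and no treatment for either genotype, and all TNF-Tg mice came from a single transgenic line. The cells that express the transgene were not named in the sources used here. The comparison between genotypes asked how capillary endothelial RNA differed in lungs with this form of vascular disease.

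The alveolar capillary is a mosaic of large, thin aerocytes that lie over the air surface and of smaller general capillary cells, which act as the progenitors that maintain and repair the network. The cells signal to each other through apelin, which is secreted by aerocytes in the adult lung and received by the apelin receptor on general capillary cells. Aerocytes carry the endothelin B receptor and a membrane-bound carbonic anhydrase, whereas general capillary cells carry the lipoprotein lipase anchor GPIHBP1 and the stem cell factor receptor KIT.

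Promoter sequence from RefSeq (GRCm38.p6) was matched for 6 of the 10 genes, Car4, Ednrb, Apln, Fibin, Kit and Hpgd. The windows of 4 genes are printed so that the letters shared by genes that were lower together can be seen, with 250 bases before the RefSeq start of the gene on its own strand, 5′ to 3′. Capitals mark GGAAG or its reverse complement CTTCC, the core letters of ETS factor sites, a family that includes the endothelial factors ERG and FLI1. The Car4 window lay at chr11:84957504-84957753 on the plus strand, the Ednrb window at chr14:103843702-103843951 on the minus strand, the Apln window at chrX:48034854-48035103 on the minus strand and the Hpgd window at chr8:56294302-56294551 on the plus strand. The GENCODE gene positions given below differ from the RefSeq starts for some genes. By these positions the Ednrb window lay within the gene, and the windows of Fibin and Kit lay partly within theirs.
Car4: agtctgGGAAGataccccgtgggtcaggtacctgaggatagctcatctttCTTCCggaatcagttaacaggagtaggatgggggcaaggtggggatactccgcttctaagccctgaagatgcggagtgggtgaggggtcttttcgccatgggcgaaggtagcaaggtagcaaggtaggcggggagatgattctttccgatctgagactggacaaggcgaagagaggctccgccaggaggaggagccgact
Ednrb: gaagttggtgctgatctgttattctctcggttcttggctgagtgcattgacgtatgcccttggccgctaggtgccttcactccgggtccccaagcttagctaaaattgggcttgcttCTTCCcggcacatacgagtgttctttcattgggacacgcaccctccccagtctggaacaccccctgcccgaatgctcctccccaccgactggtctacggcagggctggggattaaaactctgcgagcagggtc
Apln: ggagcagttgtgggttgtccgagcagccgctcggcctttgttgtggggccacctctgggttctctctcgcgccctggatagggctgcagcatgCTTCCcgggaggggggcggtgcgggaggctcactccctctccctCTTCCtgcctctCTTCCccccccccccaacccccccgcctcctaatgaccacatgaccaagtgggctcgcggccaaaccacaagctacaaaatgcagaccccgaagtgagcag
Hpgd: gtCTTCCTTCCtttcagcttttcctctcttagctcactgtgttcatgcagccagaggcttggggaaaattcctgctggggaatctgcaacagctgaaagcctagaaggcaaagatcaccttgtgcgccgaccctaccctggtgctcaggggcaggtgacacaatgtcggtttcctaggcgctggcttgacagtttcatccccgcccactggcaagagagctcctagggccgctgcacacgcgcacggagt
The ETS letters occurred 2 times in the Car4 window, 1 time for Ednrb, 3 times for Apln and 2 times for Hpgd, where the copies share a base. Fibin and Kit each held 1 copy, so all 6 matched windows held the letters, against 63.6% of the 27025 promoter windows of the same length. The letters CACCC (KLF factors) were present in 4 of 6 windows, those of Car4, Ednrb, Fibin and Kit, against 51.3% of all windows. ACAAAG or ACAATG (SOX factors) was present for Apln and Hpgd, against 25.5% of all. GGTGTG (T-box factors), TAAACA (forkhead factors) and TATAAA (the TATA box) were found in none of the 6, and in 16.2%, 12% and 13% of all windows on either strand. With the 50 bases after the start included, the 6 windows again all held the ETS letters, against 71.1% of all. CACCC was then found in 5 of 6 (56.7% of all), GGTGTG in 1 of 6 (19%) and TATAAA in 2 of 6 (14.2%), while the counts for the SOX and forkhead letters stayed at 2 and 0. Both strands were searched, the KLF and T-box letters can share bases, and a match describes the sequence only.

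The total counts per lung were 25396923 to 30049463 in TNF-Tg and 31400978 to 32529408 in WT lungs. Gm42418, a gene model over ribosomal RNA sequence, took 5.22% of the counts in TNF-Tg replicate 1 and at most 0.274% in each other lung. WT replicate 1 stood apart with 56570 counts of the squamous keratin gene Krt4, against at most 8 in each other lung. Hemoglobin genes took 0.730% to 1.18% of counts in TNF-Tg and 3.49% to 5.87% in WT lungs. Of the 49568 symbols, 19199 passed the filter on low counts and entered the quasi-likelihood test of edgeR, and 47.4% of them differed between genotypes at a Benjamini-Hochberg adjusted p-value of 0.05. All 10 capillary genes passed the filter. Without TNF-Tg replicate 1 and WT replicate 1, the same 9 of 10 capillary genes were lower.

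Of the capillary genes, 9 were lower in TNF-Tg lungs, including all 5 aerocyte genes and 4 of 5 general capillary genes, whereas 23.4% of all tested genes were lower and 24.0% were higher. The exception was Aplnr. For the same 9 genes every TNF-Tg lung lay below every WT lung, which held for 28.2% of all tested genes. The log2 fold change was at or below -1 and past the adjusted p-value for 8 of them, against 12.2% of tested genes. The median log2 fold change was -1.72 over the aerocyte genes and -1.44 over the general capillary genes, against 0.03 over all tested genes. Fewer capillary cells, less RNA per cell and a larger share of RNA from other cells cannot be told apart in whole lung. The spread between lungs differed among the genes, with coefficients of variation of 10.6% to 38.2% in TNF-Tg and 4.68% to 20.3% in WT lungs. TNF-Tg replicate 3 was the highest lung of its genotype for 6 of the 10 genes (Ednrb, Apln, Tbx2, Aplnr, Kit and Hpgd).

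**Figure D1:**
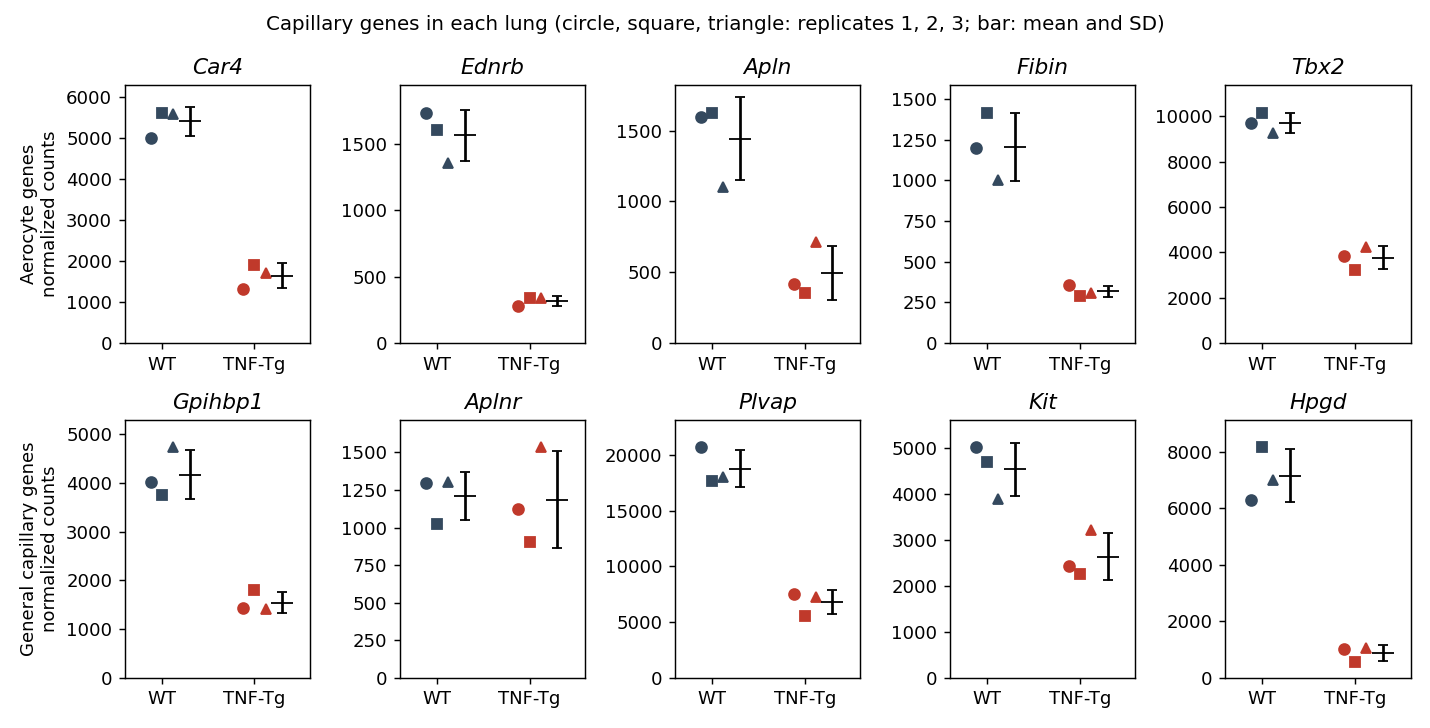
Normalized counts (vertical axes, starting at 0) of the 10 capillary genes in 3 WT and 3 TNF-Tg lungs, aerocyte genes above and general capillary genes below, with each lung as a point and the mean and SD as a bar. The groups are apart for every gene but Aplnr, for which the TNF-Tg lungs range from 902 to 1534 and the WT lungs from 1023 to 1304.

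Apelin and its receptor are the signal that links the capillary cell types. Normalized counts (counts scaled to a common library size) of Apln, the gene of the peptide ligand (chromosome X of GRCm38, 48025146 to 48034853, minus strand), were 418, 356 and 709.9 in TNF-Tg replicates 1, 2 and 3 and 1595, 1627 and 1105 in WT replicates 1, 2 and 3. The highest TNF-Tg lung was replicate 3 and the lowest WT lung was also replicate 3, and the groups did not overlap. The mean was 2.92-fold higher in WT (495 ± 189 against 1442 ± 293, mean and SD of 3 lungs). The log2 fold change was -1.54 (TNF-Tg minus WT, standard error, SE, 0.27, adjusted p = 0.00206 by edgeR). With a coefficient of variation of 38.2% in TNF-Tg lungs, Apln varied more between these lungs than any other of the 10 genes.

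Aplnr, the G protein-coupled receptor of apelin (chromosome 2, 85136225 to 85139923, plus strand), had 1122, 902 and 1534 normalized counts in the TNF-Tg lungs and 1295, 1023 and 1304 in the WT lungs. The highest and the lowest of the 6 values were both TNF-Tg lungs, and the groups overlapped. The means were 1186 ± 321 and 1207 ± 160, with a log2 fold change of -0.03 (SE 0.19, adjusted p = 0.926 by edgeR). The 95% interval of the fold, 0.723 to 1.34, did not reach the fold of any other of the 10 genes. The sign of this small difference changed with the lung left out, from -0.27 to 0.14 on the log2 scale.

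The ratio of Apln to Aplnr was 1.53 log2 units lower in TNF-Tg lungs. Its log2 values were -1.42, -1.34 and -1.11 in the TNF-Tg lungs and 0.30, 0.67 and -0.24 in the WT lungs, without overlap. The exact two-sided permutation test gave p = 0.1, the smallest value that 3 lungs against 3 allow, and 0.15 after adjustment over the 3 ratios compared. Among the other genes of the apelin pathway, 1 was higher and 3 were lower of 5 tested, with a median of -0.49. The shares over all tested genes were 24.0% higher and 23.4% lower. Klf2, a flow-responsive transcription factor of endothelium, was lower (log2 fold change -1.31, SE 0.18, adjusted p = 0.00063 by edgeR), and Cxcr4, the receptor of the chemokine CXCL12, was higher (1.30, SE 0.13). Nos3, the endothelial nitric oxide synthase, was not past the threshold (-0.32, SE 0.20, adjusted p = 0.224). Apela, the other ligand of the receptor, had 0 counts in 5 lungs and 3 in TNF-Tg replicate 3.

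Among the receptors, the endothelin B receptor of aerocytes had the lowest adjusted p-value of the 10 genes. Ednrb, which binds endothelins and clears endothelin 1 from the blood in the lung (chromosome 14, 103814625 to 103844402, minus strand), had 274, 335 and 342 normalized counts in the TNF-Tg lungs and 1734, 1603 and 1357 in the WT lungs. Every TNF-Tg lung was far below the lowest WT lung. The mean was 4.94-fold higher in WT (317 ± 37.2 against 1565 ± 192), with a log2 fold change of -2.30 (SE 0.14, adjusted p = 1.29e-05 by edgeR). It ranked 200 by p-value among the tested genes.

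Of 5 other endothelin pathway genes tested, 1 was higher and 3 were lower, against 24.0% and 23.4% of all tested genes. The largest fall was for the ligand gene Edn3 (-2.50, SE 0.18). Ednra, the receptor that constricts smooth muscle, fell by 0.60 (SE 0.16) on the log2 scale, and Ece1, the enzyme that cleaves the endothelin precursor, fell by 0.89 (SE 0.16). Edn1, which encodes endothelin 1, was at -0.21 (SE 0.15) with an adjusted p of 0.271 by edgeR. Ece2, a related converting enzyme, was higher (0.90, SE 0.18).

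Kit, the receptor tyrosine kinase for stem cell factor (chromosome 5, 75574916 to 75656722, plus strand), had 2429, 2250.3 and 3212 normalized counts in the TNF-Tg lungs and 5009, 4685 and 3888 in the WT lungs. The highest TNF-Tg lung and the lowest WT lung, both replicate 3, were the closest values, and the groups did not overlap. The mean was 1.72-fold higher in WT (2630.5 ± 512 against 4527 ± 577), with a log2 fold change of -0.78 (SE 0.16, adjusted p = 0.00452 by edgeR), which was the smallest change among the 9 genes that were lower. Kit is also a mast cell gene. The 8 mast cell markers listed summed to 497 to 566 normalized counts in TNF-Tg and 1878 to 2338 in WT lungs, mostly from Hdc, the histidine decarboxylase gene. Of the mast cell protease genes, Cma1 had 2 to 14 counts in the TNF-Tg and 53 to 77 in the WT lungs, Mcpt4 1 to 10 and 27 to 45, Tpsb2 0 to 5 and 21 to 40, and Cpa3 1 to 19 and 14 to 39. Tpsab1 was at 0 in the TNF-Tg lungs and at 1 to 3 counts in the WT lungs, and Mrgprb2 was at 0 in every lung. Of 5 mast cell markers tested, 4 were lower, against 23.4% of all tested genes. These were Tpsb2 at -3.63 (SE 0.69), Cma1 at -3.17 (SE 0.57), Mcpt4 at -2.72 (SE 0.54) and Hdc at -1.91 (SE 0.14). The part of mast cells in the Kit result was not tested.

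Kitl, which encodes the ligand stem cell factor, was not past the threshold (log2 fold change -0.44, SE 0.21, adjusted p = 0.112 by edgeR). The ratio of Kitl to Kit was 0.35 log2 units higher in TNF-Tg lungs, where it ranged from -0.92 to -0.43, against -1.27 to -0.97 in WT lungs (exact permutation p = 0.1, adjusted 0.15). Without TNF-Tg replicate 1 this difference was 0.20, with an exact p of 0.2. Of the 8 tested genes of the Kit pathway, 5 were higher and none was lower, against 24.0% and 23.4% of all tested genes. The largest of these changes was for Ptpn6, a phosphatase abundant in blood cells (1.66, SE 0.14), beside leukocyte markers of which 3 of 5 were higher and which summed to 23335 to 28237 normalized counts in TNF-Tg and 5105 to 6187 in WT lungs. The part of the leukocytes in this result was not tested.

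Car4, the aerocyte enzyme that is anchored to the outer membrane and interconverts carbon dioxide and bicarbonate, lies on chromosome 11 (84957786 to 84966044, plus strand). It had 1309, 1905 and 1695 normalized counts in the TNF-Tg lungs and 4996, 5609 and 5580.4 in the WT lungs. The groups were well apart, and replicate 1 was the lowest lung of each genotype. The mean was 3.30-fold higher in WT (1637 ± 302 against 5395 ± 346), with a log2 fold change of -1.72 (SE 0.15, adjusted p = 5.97e-05 by edgeR). Of 10 other carbonic anhydrase genes tested, 2 were higher and 4 were lower, against 24.0% and 23.4% of all tested genes. Car14 was at -3.77 (SE 0.21), Car13 at 1.39 (SE 0.20) and the cytosolic Car2 at -0.45 (SE 0.12). These 6 calls became 3 without TNF-Tg replicate 2 or without WT replicate 1. Car4 is also expressed by some alveolar macrophages, whose 7 markers summed to 63191 to 106306 normalized counts in TNF-Tg and 6905 to 8919 in WT lungs. That sum was led by Marco, a scavenger receptor gene at 7.10 (SE 0.58), while 4 of the 7 markers were lower, among them Fabp1 at -2.17 (SE 0.24), and their part in the Car4 values was not tested.

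Gpihbp1 encodes the protein that binds lipoprotein lipase and carries it to the luminal side of the capillary (chromosome 15, 75596628 to 75599481, plus strand). It had 1431, 1793 and 1401 normalized counts in the TNF-Tg lungs and 4027, 3756 and 4732 in the WT lungs. The groups were separated by more than the whole spread of either. The mean was 2.71-fold higher in WT (1542 ± 218 against 4172 ± 504), with a log2 fold change of -1.44 (SE 0.14, adjusted p = 0.000102 by edgeR). Lpl, the lipase that this protein anchors, went the other way (1.15, SE 0.12, adjusted p = 0.00018 by edgeR). The cell source of the Lpl RNA in whole lung was not tested. Of 12 tested genes of the lipoprotein lipase pathway, 3 were higher and 1 was lower, with a median of 0.02. Over all tested genes, 24.0% were higher and 23.4% were lower. The lower gene was Cd36, the fatty acid transporter (-1.91, SE 0.13), and the largest rise was for Fabp5, a fatty acid carrier (2.24, SE 0.30). The inhibitor gene Angptl4 was at -1.38 (SE 0.52, adjusted p = 0.0586) and the carrier gene Fabp4 at 0.88 (SE 0.32, adjusted p = 0.0547), neither past the threshold. The 4 calls of this pathway became 6 without WT replicate 3, with limma-voom or without the low-count filter.

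The ratio of Car4 to Gpihbp1, a marker gene of each capillary cell type, was 0.30 log2 units lower in TNF-Tg lungs. Its values overlapped between genotypes, from -0.13 to 0.27 in TNF-Tg and from 0.24 to 0.58 in WT lungs (exact permutation p = 0.2, adjusted 0.2). The difference was -0.19 without TNF-Tg replicate 1 and -0.20 without WT replicate 2. It was -0.40 without TNF-Tg replicate 3 (exact permutation p = 0.1) and -0.37 without WT replicate 3 (exact permutation p = 0.2). The values did not overlap between genotypes in either of these last cases.

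Hpgd showed the largest difference of the 10 genes. It encodes the dehydrogenase that inactivates prostaglandin E2 (chromosome 8, 56294585 to 56321043, plus strand) and had 1026, 555 and 1056 normalized counts in the TNF-Tg lungs and 6283, 8154 and 7011 in the WT lungs. The highest TNF-Tg lung was far below the lowest WT lung, and TNF-Tg replicate 2 was the lowest of all. The mean was 8.13-fold higher in WT (879 ± 281 against 7149 ± 943), with a log2 fold change of -3.02 (SE 0.25, adjusted p = 5.07e-05 by edgeR). Hpgd overlaps Gm45540, a gene model that the annotation lists as still to be verified by experiment (TEC), on the same strand, so reads of the shared stretch may belong to either.

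The transporter Slco2a1, which takes prostaglandins up for that dehydrogenase, was also lower (log2 fold change -1.78, SE 0.11, adjusted p = 1.71e-05 by edgeR). Of 12 tested genes of the prostaglandin E2 pathway, 3 were higher and 4 were lower, against 24.0% and 23.4% of all tested genes. The receptor gene Ptger4 showed the largest rise (2.72, SE 0.19), and the inducible cyclooxygenase gene Ptgs2 was at -0.90 (SE 0.57) with an adjusted p of 0.225.

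Plvap encodes the protein of the diaphragms that span capillary fenestrae and caveolae (chromosome 8, 71497765 to 71511752, minus strand). It had 7564, 5588 and 7256 normalized counts in the TNF-Tg lungs and 20717, 17666 and 18026 in the WT lungs. The highest TNF-Tg value was less than the lowest WT value by more than the whole TNF-Tg range. The mean was 2.76-fold higher in WT (6803 ± 1063 against 18803 ± 1667), with a log2 fold change of -1.47 (SE 0.15, adjusted p = 0.000142 by edgeR). Plvap overlaps Gtpbp3 on the opposite strand. Of 7 tested caveolar genes, 1 was higher and 6 were lower, against 24.0% and 23.4% of all tested genes. The largest falls were for Cavin2 (-1.88, SE 0.13) and Cav1, the coat protein gene (-1.73, SE 0.12), Cavin1 was at -1.28 (SE 0.19), and the gene that rose was Cavin3 (0.51, SE 0.11).

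The remaining aerocyte genes are a transcription factor gene and a secreted protein gene. Tbx2, a T-box transcription factor (chromosome 11, 85832551 to 85841948, plus strand), had 3824, 3216 and 4240.4 normalized counts in the TNF-Tg lungs and 9714, 10166 and 9257 in the WT lungs. The WT lungs lay close together, with a coefficient of variation of 4.68%, and the groups did not overlap. The mean was 2.58-fold higher in WT (3760.1 ± 515 against 9712 ± 454), with a log2 fold change of -1.37 (SE 0.13, adjusted p = 8.77e-05 by edgeR). Of 6 other T-box genes tested, 4 were lower and none was higher, against 23.4% and 24.0% of all tested genes. Tbx20 was at -1.67 (SE 0.35), Tbx5 at -0.83 (SE 0.12) and Tbx3 at -1.28 (SE 0.20).

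Fibin, a small secreted protein (chromosome 2, 110360917 to 110363183, minus strand), had 355, 289.6 and 307 normalized counts in the TNF-Tg lungs and 1199, 1417 and 999.7 in the WT lungs. The TNF-Tg lungs were close to each other, and all lay below the WT range. The mean was 3.80-fold higher in WT (317 ± 33.7 against 1205 ± 208), with a log2 fold change of -1.93 (SE 0.15, adjusted p = 4.5e-05 by edgeR).

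**Figure D2:**
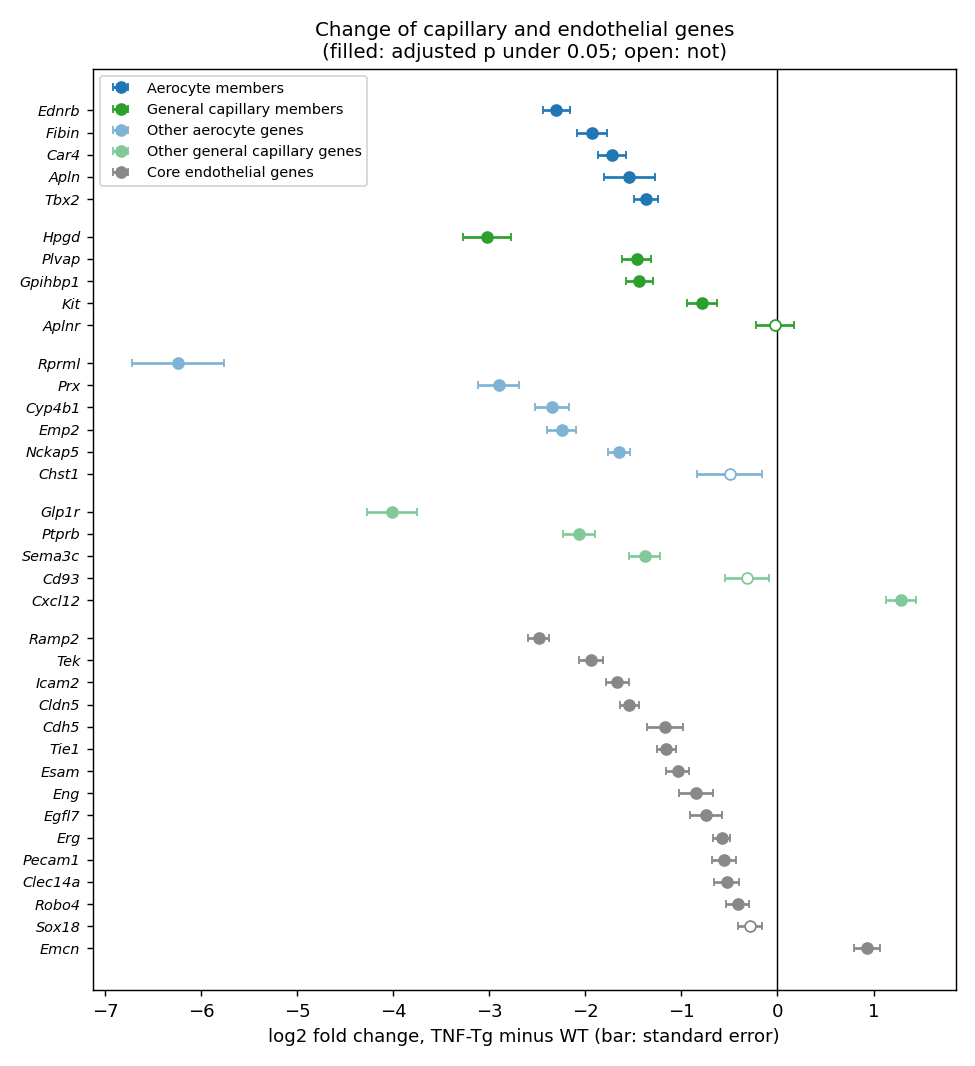
Log2 fold change (horizontal axis, TNF-Tg minus WT) with its standard error for the 10 capillary genes, the other listed capillary genes and the 15 core endothelial genes, filled where the adjusted p-value was under 0.05. Most points lie left of zero, Hpgd at -3.02 lies farthest left among the 10 capillary genes, and Emcn at 0.93 and Cxcl12 at 1.29 are the filled points to the right.

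Compared per length, Plvap had the highest level of the 10 genes in both genotypes, with 312 ± 27.7 RPKM (reads scaled to library size and exon length, SD over 3 lungs) in WT and 113 ± 17.7 in TNF-Tg lungs. In WT lungs Hpgd followed at 140.3 ± 18.5, then Car4 at 90.6 ± 5.82 and Tbx2 at 88.5 ± 4.14, which overlapped, and Gpihbp1 at 53.9 ± 6.51. Fibin, Kit, Apln, Ednrb and Aplnr then ranged from 17.6 to 10.8 RPKM, and each overlapped its neighbour. Hpgd moved from the second place in WT to the fifth in TNF-Tg lungs, at 17.3 ± 5.51 RPKM, where it overlapped both of its neighbours, Gpihbp1 at 19.9 ± 2.82 and Aplnr at 10.6 ± 2.86. Aplnr had the lowest level in WT lungs (10.8 ± 1.43) and the sixth level in TNF-Tg lungs. Ednrb was lowest in TNF-Tg lungs at 2.45 ± 0.288 RPKM, apart from Fibin above it.

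**Figure D3:**
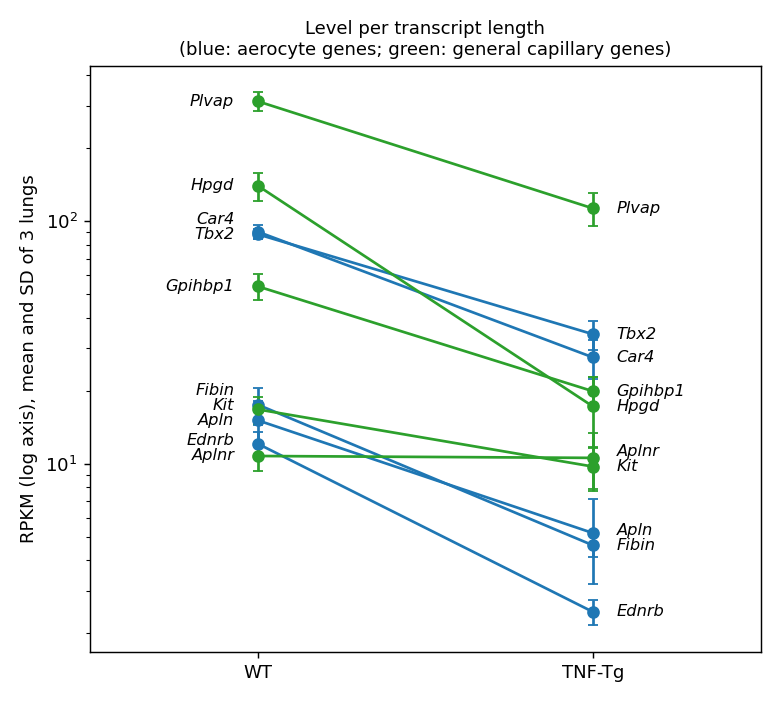
Level per transcript length in RPKM (log axis) of the 10 genes in WT and TNF-Tg lungs, with the mean and SD of 3 lungs, blue for aerocyte and green for general capillary genes. Plvap is highest in both genotypes, the line of Aplnr is flat from 10.8 to 10.6, and the line of Hpgd falls from 140.3 to 17.3.

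The capillary genes were next compared with endothelial RNA in general. The 15 core endothelial genes had a mean log2 CPM of 7.05 ± 0.11 in TNF-Tg and 7.99 ± 0.07 in WT lungs, a difference of -0.94. Of these genes 13 were lower and 1 was higher, against 23.4% and 24.0% of all tested genes, with a median log2 fold change of -0.85. They ranged from Ramp2, the adrenomedullin receptor partner, at -2.49 (SE 0.11) to Emcn, a sialomucin gene of venous and capillary endothelium, at 0.93 (SE 0.13). The remaining gene, Sox18, was at -0.29 (SE 0.12) with an adjusted p of 0.0875. Like Ramp2, the core genes Tek (-1.94), Icam2 (-1.67) and Cldn5 (-1.54) fell more than Plvap (-1.47), Gpihbp1 (-1.44) and Tbx2 (-1.37). The other core genes fell less than these capillary genes or rose.

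Relative to this endothelial mean in the same lung, 7 capillary genes were lower in every TNF-Tg lung than in every WT lung, which held for 6.30% of all tested genes on this scale. Hpgd differed by -2.14 log2 units, Ednrb by -1.36, Fibin by -0.98, Car4 by -0.80, Plvap by -0.54, Gpihbp1 by -0.50 and Tbx2 by -0.44. For Gpihbp1 the closest lungs were TNF-Tg replicate 2 at -1.09 and WT replicate 2 at -1.06. Its exact permutation p was 0.2 without TNF-Tg replicate 3 or with a single WT lung left out. The same p of 0.2 was found for Car4 without WT replicate 3 and for Plvap without WT replicate 1. Aplnr was higher relative to the endothelial mean, from -2.08 to -1.51 in TNF-Tg and from -2.94 to -2.48 in WT lungs, a difference of 0.88. Because the endothelial mean was itself lower in TNF-Tg lungs, 75.0% of all tested genes were higher without overlap on this scale and the median difference over all tested genes was 0.97, so the Aplnr difference is close to that of a typical gene. Each of these 8 differences had an exact permutation p of 0.1, the smallest this design allows. Apln (-0.65, exact p = 0.2) and Kit (0.14, exact p = 0.5) overlapped between genotypes. The Kit value was 0.051 without TNF-Tg replicate 3 and 0.078 without WT replicate 3. With a shorter reference of 5 endothelial genes no direction changed, but the Kit value was 0.067 and Apln did not overlap between genotypes (-0.72, exact p = 0.1).

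**Figure D4:**
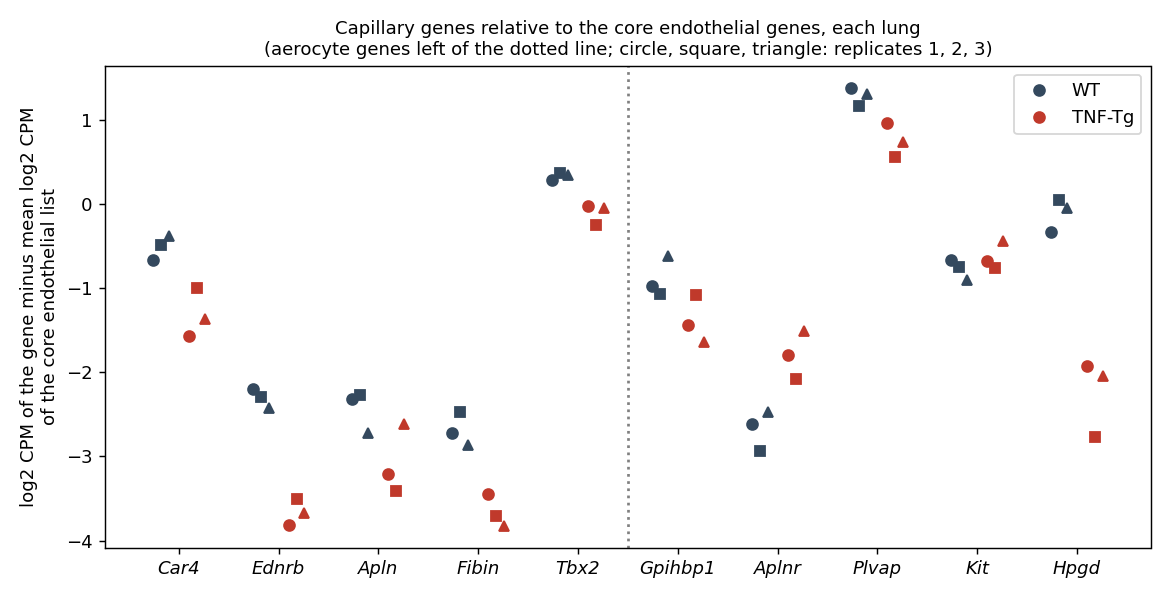
Log2 CPM of each capillary gene minus the mean log2 CPM of the 15 core endothelial genes (vertical axis), with 1 point per lung, WT in dark and TNF-Tg in red. Hpgd and Ednrb show the widest gaps, with differences of -2.14 and -1.36, Aplnr is the gene whose TNF-Tg lungs all lie above the WT lungs, as do those of 75.0% of all tested genes on this scale, and Apln and Kit overlap.

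Of 6 other aerocyte genes, 5 were lower and none was higher, with a median log2 fold change of -2.30. Among all tested genes, 23.4% were lower and 24.0% were higher. Prx, a scaffold protein gene, was at -2.90 (SE 0.22), Cyp4b1, a cytochrome P450 gene, at -2.35 (SE 0.18), Emp2, a membrane protein gene, at -2.25 (SE 0.15) and Nckap5 at -1.65 (SE 0.11). Rprml had 1, 0 and 2 counts in the TNF-Tg lungs against 100, 97 and 93 in the WT lungs, and Chst1, a sulfotransferase gene, was at -0.50 (SE 0.34, adjusted p = 0.262). Of 5 other general capillary genes, 3 were lower and 1 was higher. Glp1r, the receptor of glucagon-like peptide 1, was at -4.01 (SE 0.26), with 29, 52 and 88 counts in the TNF-Tg lungs and 957 to 1128 in the WT lungs. Ptprb, the vascular endothelial phosphatase, was at -2.07 (SE 0.17) and Sema3c, a semaphorin gene, at -1.38 (SE 0.16), while Cd93 was at -0.31 (SE 0.23, adjusted p = 0.291). Cxcl12, a chemokine gene that other vessel and stromal cells also express, was higher (1.29, SE 0.16, adjusted p = 0.000353 by edgeR).

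Vegfa, the growth factor that aerocytes receive from alveolar type 1 cells, was lower in TNF-Tg lungs (log2 fold change -1.60, SE 0.18, adjusted p = 0.000215 by edgeR). Its receptor genes Kdr (-1.44, SE 0.18) and Flt1 (-1.63, SE 0.16) were lower as well, while the co-receptor gene Nrp2 was higher (1.82, SE 0.14). Of 8 tested genes of VEGF signalling, 2 were higher and 4 were lower, against 24.0% and 23.4% of all tested genes.

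**Figure D5:**
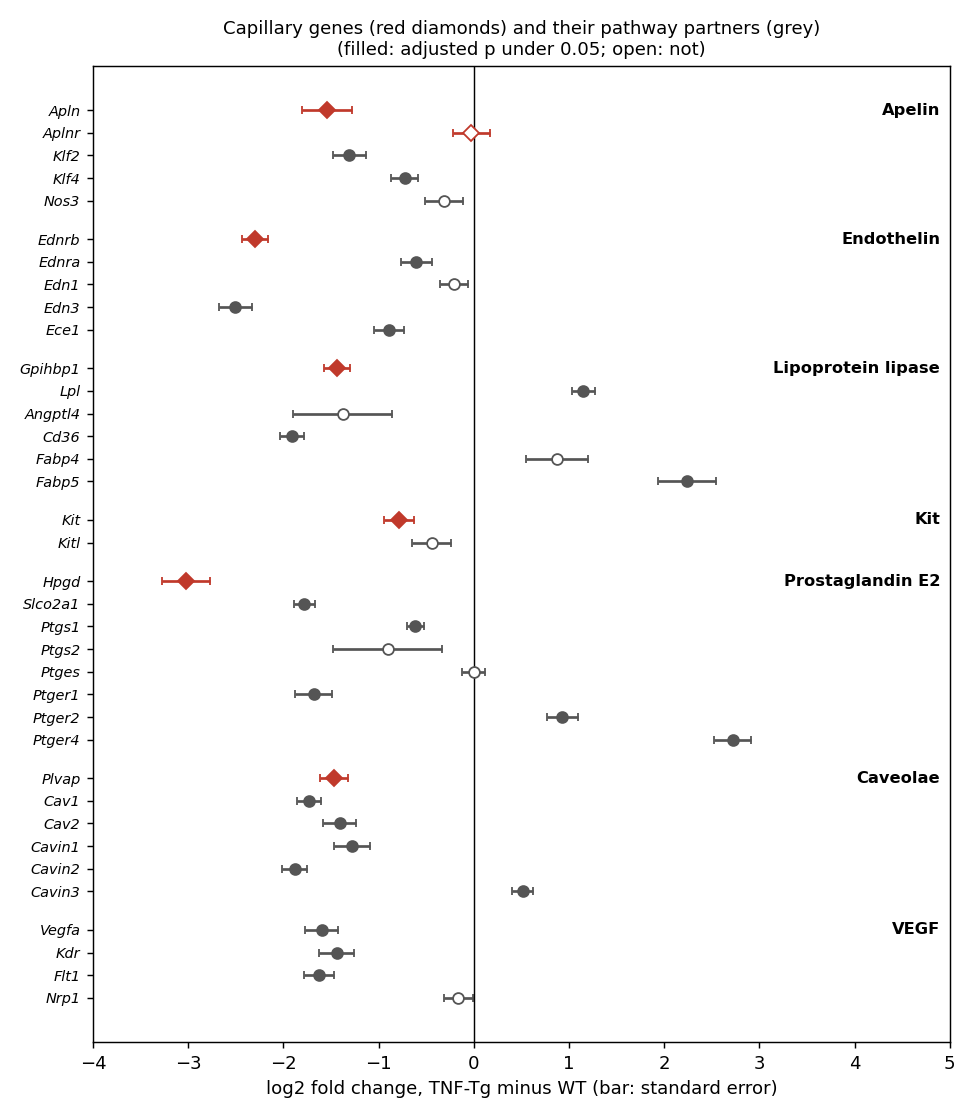
Log2 fold change (horizontal axis, TNF-Tg minus WT) with its standard error for 7 capillary genes (red diamonds) and selected listed partners (grey circles), filled where the adjusted p-value was under 0.05. Gpihbp1 at -1.44 lies opposite to Lpl at 1.15, and Apln at -1.54 lies apart from Aplnr at -0.03.

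Some markers of neighbouring cell types also differed, as did 47.4% of all tested genes (23.4% lower and 24.0% higher). All 5 alveolar type 1 genes were lower, with a median of -1.60, from Aqp5 at -1.88 (SE 0.11) to Pdpn at -0.71 (SE 0.12), and their sum was 30129 to 37657 normalized counts in TNF-Tg and 87516 to 94755 in WT lungs. Of the alveolar type 2 genes 3 of 5 were lower (from Abca3 at -0.89 to Etv5 at -0.48), of the fibroblast genes 5 of 7 (from Npnt at -2.51 to Col1a2 at -0.59) and of the pericyte genes 3 of 5 (from Cox4i2 at -1.51 to Cspg4 at -0.55), and none of these lists held a gene that was higher. Among other endothelial markers, 4 of 7 arterial genes were lower, from Gja5 at -2.08 to Gja4 at -0.60, and 2 of 5 lymphatic genes, Flt4 at -1.40 and Mmrn1 at -0.78. Of the 5 venous genes 2 were lower, Slc6a2 at -5.16 and Vwf at -3.22, and 2 were higher, Ackr1 at 3.26 and Vcam1 at 1.71. The squamous markers, of which 4 of 5 tested were lower, summed to 310 to 476 normalized counts in TNF-Tg and 564 to 105917 in WT lungs, highest in WT replicate 1. The part of these cell types in the 10 capillary genes was not tested.

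For Car4 and Gpihbp1, the tested genes with the most similar pattern over the 6 lungs were looked up by the root mean square difference of centred log2 CPM, over 11298 genes whose mean log2 CPM was 3 or more. Car4 was closest to Col4a6 (0.118), Arhgef15 (0.119) and Reep1 (0.123). Gpihbp1 was closest to 2010300C02Rik (0.0879), Angptl2 (0.0882) and Atp9a (0.103). Of the other 9 capillary genes, Gpihbp1 was the closest to Car4 and Car4 the closest to Gpihbp1 (0.215), while Tbx2 and Plvap were closer to each other (0.119).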

How the data were processed

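Poly(A)-selected, strand-marked libraries were made by the authors from whole-lung RNA of 3 TNF-Tg and 3 WT mice. Per the labels and the submitters' processing notes, reads were trimmed with Trimmomatic (version 0.36), mapped to GRCm38.p5 with STAR (version 2.5.2b) and counted with featureCounts. The deposited values were raw read counts per gene symbol, without normalization. The strand setting of the counting was not given in the sources used here.

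In R (version 4.3.3), edgeR (version 4.0.16) filtered the counts with filterByExpr, scaled them by TMM and fitted genotype alone. Its quasi-likelihood p-values were adjusted by Benjamini-Hochberg over all tested genes, with a threshold of 0.05. The standard error was the size of the log2 fold change divided by the square root of F. To give normalized counts, each count was scaled from the effective library size of its lung to the mean of the lungs, and log2 CPM used a prior count of 2. RPKM used exon lengths of GENCODE for GRCm38. Ratios and values relative to the endothelial genes were tested with exact two-sided permutation tests over lungs. The smallest level taken as detected, 3 counts, was 0.0922 to 0.118 CPM, which allows for counting error alone.

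The members and lists were chosen with earlier results of these data known. Named genes were the 10 members, all other capillary genes, the direct partners of members, the extremes of each list and the nearest patterns of Car4 and Gpihbp1. Krt4, Gm42418, Mrgprb2, Tpsab1, Cma1, Mcpt4, Cpa3, Hdc and some further list genes were named after their values were seen. Of the list genes, 3 were found under older symbols. Motifs were searched in 250 bases before the start, in place of the planned 300-base window. Alternatives were DESeq2 (version 1.42.0), limma-voom (limma version 3.58.1), other scalings and filters, a replicate block and each lung left out. The tests were first run on simulated data.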

Additional observations from a re-analysis of the deposited data

How the results depend on the processing

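The same 9 capillary genes were lower in TNF-Tg lungs with limma-voom, with DESeq2, with its size factors in edgeR, with scaling by totals alone, with TMM computed without Gm42418, without the low-count filter, with a filter of 10 counts in each lung and with each lung left out, and 8 of them when the log2 fold change also had to reach 1 in size. The scalings moved the median of all genes by less than 0.1 log2 units. Deviations from the genotype mean correlated at -0.15, -0.0043 and -0.24 for same-numbered lungs. With 3 lungs per genotype this cannot show whether the replicate numbers pair the lungs. With a replicate block 7686 genes differed in place of 9096, with the same 9 capillary genes lower and 6 lipoprotein lipase pathway calls in place of 4. When the change had to reach 1 in size, 4320 genes differed and 7 core endothelial genes were past the threshold in place of 14, and calls went from 4 to 1 for the endothelin pathway, 5 to 1 for the Kit pathway, 7 to 3 for prostaglandin E2, 4 to 2 for apelin and 6 to 3 for the carbonic anhydrases, since that setting asks for a larger change. For Aplnr the log2 fold change ranged from -0.27 to 0.14 with 1 lung left out and was 0.029 without both replicate 1 lungs; the cause was not tested. Relative to the endothelial mean, no capillary gene changed direction without those lungs, an alternative chosen after seeing the data. Kit had the largest adjusted p-value of the 9 lower genes, 0.0201 with a lung left out (TNF-Tg replicate 2) and 0.0345 over the other alternatives. Carbonic anhydrase calls fell from 6 to 3 without TNF-Tg replicate 2 or WT replicate 1, and without both replicate 1 lungs endothelin calls fell from 4 to 2 and Kit pathway calls from 5 to 3. With 3 lungs per genotype, exact tests could not go below p = 0.1.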
